A study of Saccharomyces cerevisiae with 18 samples.

Results

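The genes of glycolysis and of the branches that lead from it to ethanol, acetate and glycerol were followed in budding yeast (Saccharomyces cerevisiae). The set holds 32 genes of the 7130 in the deposited count table. They were taken by name, from the hexokinases to the alcohol, acetaldehyde and glycerol-3-phosphate dehydrogenases. The choice was made with earlier results of these data known. Messenger RNA was sequenced from cells of 4 strains grown in YPD, a rich glucose medium, at 25 °C, with 3 libraries per strain that the design text describes as separate RNA isolations. WT is the strain CAY1015, fes1Δ is CAY1221, fes1ΔS is CAY1290 and fes1ΔL is CAY1256. The genotype labels name alleles of FES1, a nucleotide exchange factor for the Hsp70 chaperones, whose transcript is spliced alternatively to give a short (S) or a long (L) form of the protein. The labels give 1 strain name per genotype, so any other difference between the strains cannot be told apart from the FES1 allele. Whether the isolations came from separate cultures is not given, so the p-values measure the spread between isolations, and 6 further samples taken after heat shock were not analysed here.

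Glycolysis turns glucose into pyruvate, and in glucose-grown yeast most of the pyruvate is decarboxylated to acetaldehyde and reduced to ethanol, which regenerates the NAD+ that glyceraldehyde-3-phosphate dehydrogenase uses. Smaller branches oxidise acetaldehyde to acetate or reduce dihydroxyacetone phosphate on the way to glycerol. Many steps are run by several isozymes, of which a major form is high in glucose and minor forms are high when glucose is scarce or when cells respire. HXK1 and GLK1, for example, are repressed by glucose, and ADH2, which oxidises ethanol, is known for its tight repression by glucose.

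The FES1 transcript did not follow the label fes1Δ. FES1 stood at 150 to 165 CPM (counts scaled to library size) in the WT libraries and at 151 to 168 CPM in the fes1Δ-labelled libraries, while it reached 1377 to 1526 CPM in fes1ΔS and 144 to 150 CPM in fes1ΔL. URA3, a common selection marker, lay between 214 and 225 CPM in the fes1Δ-labelled libraries and at or under 0.302 CPM in the other 9. Counts per gene do not separate the FES1 splice forms or an altered allele. Every direction drawn below from this strain therefore belongs to the fes1Δ-labelled libraries. Total counts ran from 7608550 to 10246711 per library, and the 32 genes took between 11.9% and 13.7% of each library.

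In WT, the levels of the 32 genes spanned a factor of 26640.1 per unit of coding length. TDH3, the main glyceraldehyde-3-phosphate dehydrogenase gene, was highest, at 23977 ± 1640 CPM per kb (SD, n = 3), and its libraries did not overlap with those of the next gene. Phosphoglycerate mutase (GPM1), enolase (ENO2) and aldolase (FBA1) followed at 12511 ± 926, 11582 ± 598 and 11041 ± 516 CPM per kb. The ranges of GPM1 and ENO2 overlapped, as did those of ENO2 and FBA1, so their order is not resolved.

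ADH1, the main ethanol-forming alcohol dehydrogenase gene, stood at 9151 ± 655 CPM per kb and PDC1, the main pyruvate decarboxylase gene, at 8157 ± 257 CPM per kb. PGK1, TPI1 and the pyruvate kinase gene CDC19 lay between 6179 and 7039 CPM per kb. TDH2 closed the leading 10 at 5632 ± 511 CPM per kb, and those 10 genes held 93.8% of the summed level of the set.

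The next gene, HXK2, stood at 1383 ± 33.2 CPM per kb. The lowest members were PDC5 at 14.8 ± 1.14, ADH2 at 2.74 ± 0.614 and PDC6 at 0.90 ± 0.362 CPM per kb. ADH2 had 19 to 32 counts per WT library and PDC6 had 9 to 18, so both rest on few counts.

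**Figure D1:**
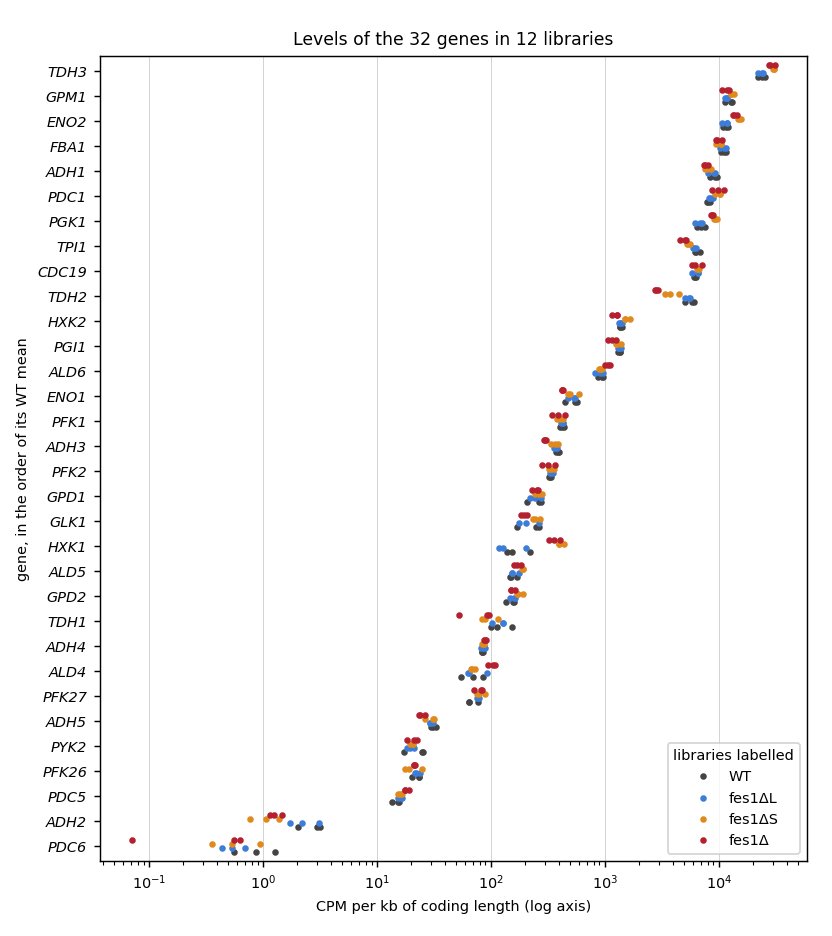
Level of each of the 32 genes in CPM per kb of coding length (log axis), in the order of the WT mean, with 1 point per library coloured by the strain on its label. TDH3 is highest at 23977 CPM per kb in WT and PDC6 lowest at 0.90 CPM per kb, and for TDH2 and HXK1 the fes1Δ and fes1ΔS points lie apart from those of WT and fes1ΔL.

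Against WT, the fes1Δ-labelled libraries and the fes1ΔS libraries both differed at a minority of the pathway's genes, and mostly by small factors. In the fes1Δ-labelled libraries, 14 of the 32 genes were called by edgeR (6 higher and 8 lower), beside 12.9% of all 5719 genes tested (5.72% higher and 7.15% lower). In fes1ΔS, 10 of the 32 were called (7 higher and 3 lower), beside 6.66% of all genes (3.22% higher and 3.44% lower). All 32 genes passed the filter on low counts. The median log2 difference of the 32 was -0.09 for the fes1Δ-labelled libraries and 0.02 for fes1ΔS, beside 0.00 for all genes in both. Libraries did not overlap for 19 of the 32 genes in the former comparison and for 12 in the latter, beside 25.1% and 28.1% of all genes. These comparisons use the same WT libraries, so an error in those libraries enters both. The count for the fes1Δ-labelled libraries was 8 without WT replicate 3 and 9 without fes1Δ replicate 2, and that for fes1ΔS was 6 without fes1ΔS replicate 1.

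**Figure D2:**
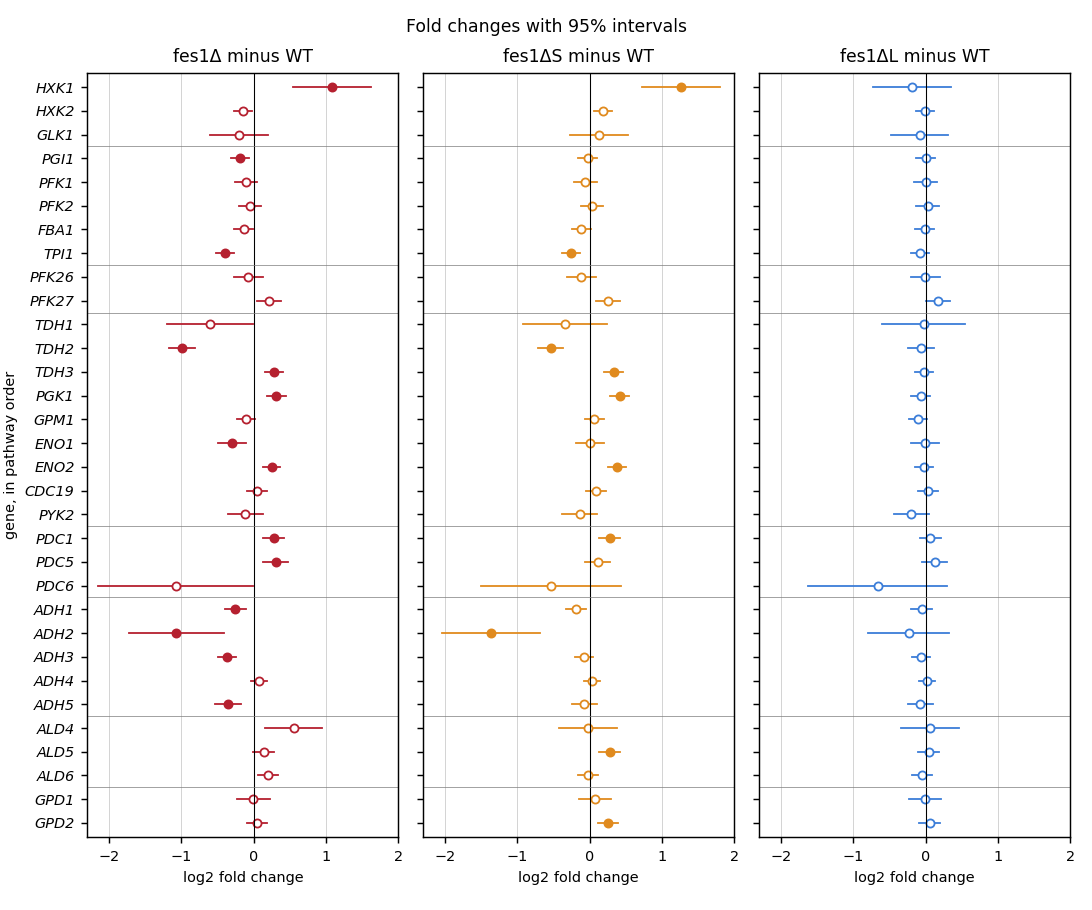
Log2 fold change of each of the 32 genes against WT, with its 95% interval as a line, 1 panel for each other strain and genes in pathway order. Filled points are called by edgeR. In the fes1Δ panel, HXK1 at 1.08 is the highest filled point, TDH2 lies at -0.99, and ADH2, on few counts, lies below TDH2. No point is filled for fes1ΔL.

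At the entry of the pathway, HXK1, a glucose-repressed hexokinase gene, was higher in both. WT libraries held 320, 201 and 224 CPM of HXK1, those labelled fes1Δ held 469, 519 and 590 CPM, and fes1ΔS libraries held 640, 578 and 574 CPM. Every library labelled fes1Δ or fes1ΔS lay above every WT library. The fold change was 2.12 in the fes1Δ-labelled libraries (log2 1.08, SE 0.23, edgeR adjusted p = 0.0183) and 2.40 in fes1ΔS (log2 1.27, SE 0.24, edgeR adjusted p = 0.0131).

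The WT spread limits these calls. In the comparison of the fes1Δ-labelled libraries with WT, the HXK1 call was lost without WT replicate 2 (edgeR adjusted p = 0.0555) and without WT replicate 3 (0.0683). For fes1ΔS it was lost without WT replicate 3 (edgeR adjusted p = 0.0555) and, just past the threshold, without fes1ΔS replicate 1. Summed levels of 11 markers of glucose exhaustion and general stress were also higher, at 725 to 1041 CPM in WT, 1102 to 1476 CPM in the fes1Δ-labelled libraries, 1129 to 1164 CPM in fes1ΔS and 782 to 1039 CPM in fes1ΔL. The members differed. In WT, the fes1Δ-labelled libraries and fes1ΔS, HSP26 had means of 35.3, 129 and 95.6 CPM. In the same order SUC2 had 88.4, 96.3 and 88.9 CPM, and CYC1 42.3, 50.1 and 32.3 CPM. The part of these markers in the result was not tested.

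HXK2, the main hexokinase gene in glucose, was not called against WT in either strain. Its mean was 2020 ± 48.5 CPM in WT, 1827 ± 110 CPM in the fes1Δ-labelled libraries (log2 -0.14, edgeR adjusted p = 0.124) and 2288 ± 145 CPM in fes1ΔS (log2 0.18, edgeR adjusted p = 0.0810). It passed as lower in the former on FPKM values (limma adjusted p = 0.0227) and as higher in fes1ΔS with DESeq2 (adjusted p = 0.0364). GLK1, the glucokinase gene, ranged from 257 to 396 CPM in WT and was not called in either strain. Per unit length, HXK1 made up 9.49% ± 1.78 (SD, n = 3) of the summed HXK1, HXK2 and GLK1 level in WT, 19.97% ± 2.53 in the fes1Δ-labelled libraries and 18.4% ± 0.169 in fes1ΔS. The summed level itself was 1780 ± 116 CPM per kb in WT, 1808 ± 34.4 CPM per kb in the fes1Δ-labelled libraries and 2225 ± 143 CPM per kb in fes1ΔS.

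In the upper part of glycolysis, TPI1, which encodes triose phosphate isomerase, was lower in both. Its WT libraries held 5145, 4663 and 4763 CPM, those labelled fes1Δ held 3392, 3823 and 3856 CPM, and fes1ΔS libraries held 4180, 3950 and 4045 CPM. All 6 lay below every WT library. The log2 difference was -0.40 (SE 0.06, edgeR adjusted p = 0.000120) in the fes1Δ-labelled libraries and -0.26 (SE 0.06, edgeR adjusted p = 0.00970) in fes1ΔS. The latter call was lost without WT replicate 1 (edgeR adjusted p = 0.0760) and without fes1ΔS replicate 2 (0.0641).

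PGI1, encoding phosphoglucose isomerase, was called lower in the fes1Δ-labelled libraries alone, at 1946 ± 148 against 2224 ± 55.2 CPM in WT (log2 -0.19, SE 0.06, edgeR adjusted p = 0.0437). That call was lost when any library but fes1Δ replicate 1 was left out (edgeR adjusted p = 0.0620 to 0.128) and in a fit of those strains only (0.131). PFK1 and PFK2, the subunits of phosphofructokinase, and FBA1 were not called in either strain, with log2 differences from -0.14 to 0.03. PFK26 and PFK27, which make the activator of phosphofructokinase, were not called either. PFK27 passed when WT replicate 1 was left out, for the fes1Δ-labelled libraries (log2 0.30, edgeR adjusted p = 0.0208) and for fes1ΔS (log2 0.34, 0.0140), and for the former also without fes1Δ replicate 3 (0.0167).

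At glyceraldehyde-3-phosphate dehydrogenase, the copies differed in direction. TDH2 held 6027, 5053 and 5800 CPM in WT, 2807, 2958 and 2750 CPM in the fes1Δ-labelled libraries, and 4450, 3409 and 3763 CPM in fes1ΔS. The 3 strains did not overlap. TDH2 was 1.98-fold lower in the fes1Δ-labelled libraries (log2 -0.99, SE 0.08, edgeR adjusted p = 1.82e-07) and 1.45-fold lower in fes1ΔS (log2 -0.54, SE 0.08, edgeR adjusted p = 0.000352).

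TDH3 moved the other way. It held 25478, 22221 and 24161 CPM in WT, 31124, 27905 and 28375 CPM in the fes1Δ-labelled libraries, and 30390, 29676 and 30393 CPM in fes1ΔS. All libraries of the latter strains lay above all WT libraries, by 1.22-fold for those labelled fes1Δ (log2 0.28, SE 0.06, edgeR adjusted p = 0.00372) and by 1.26-fold for fes1ΔS (log2 0.33, SE 0.06, edgeR adjusted p = 0.00126). TDH1, the least abundant copy and one known from slow-growing cells, ranged from 100.6 to 154 CPM in WT, from 52.8 to 96.4 CPM in the fes1Δ-labelled libraries and from 83.8 to 116 CPM in fes1ΔS, and was not called.

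With TDH2 lower and TDH3 higher, TDH2 made up 18.9% ± 0.419 (SD, n = 3) of the summed per-length level of TDH1, TDH2 and TDH3 in WT, 8.87% ± 0.651 in the fes1Δ-labelled libraries and 11.3% ± 1.26 in fes1ΔS. Their sum was 29732 ± 2154 CPM per kb in WT, 32085 ± 1678 CPM per kb in the fes1Δ-labelled libraries and 34158 ± 901 CPM per kb in fes1ΔS. The ranges of the sum overlapped between WT and the fes1Δ-labelled libraries, and fes1ΔS lay above WT. The TDH copies are similar in sequence, and counting that drops or splits reads shared between them could change the level of each, so their separate levels are uncertain.

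**Figure D3:**
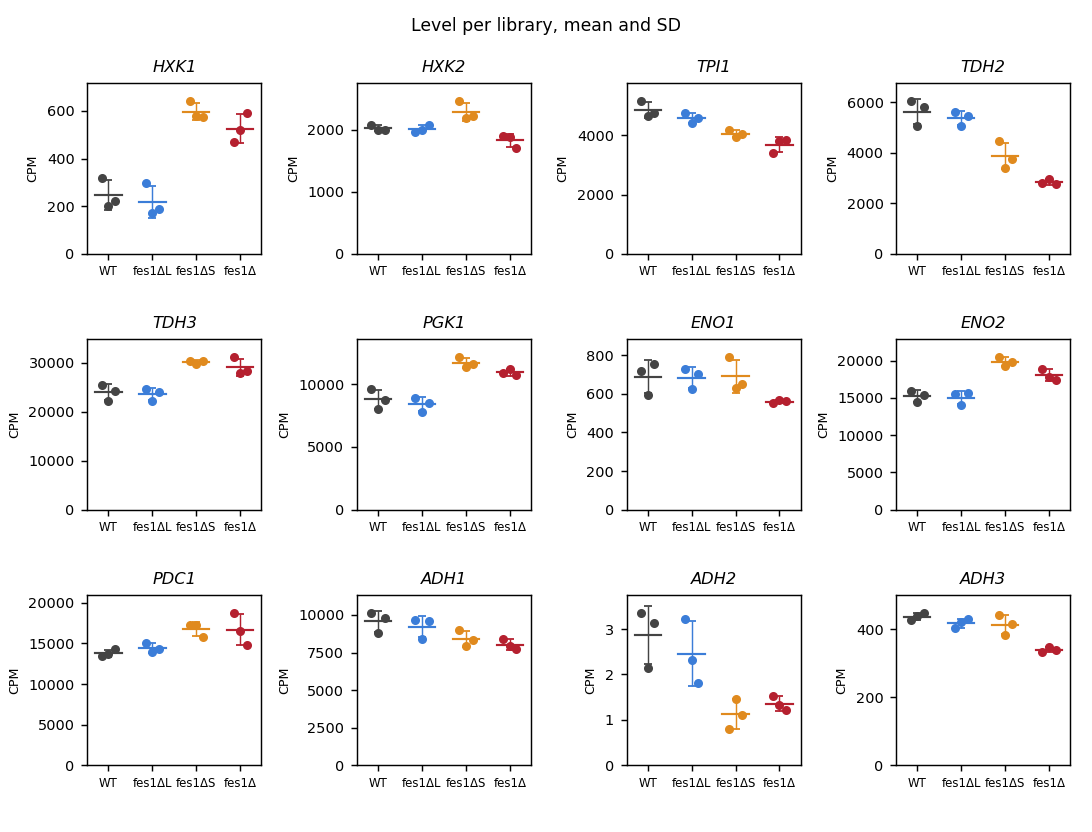
Level in CPM of 12 of the genes described, 1 panel per gene with the axis from 0, 1 point per library, and lines for the mean and the SD of the 3 libraries of each strain. TDH2 lies at 2750 to 2958 CPM in the fes1Δ-labelled libraries against 5053 to 6027 CPM in WT, and HXK1 at 469 to 590 against 201 to 320 CPM.

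Further down, PGK1 and ENO2 were higher in both. PGK1, for phosphoglycerate kinase, held 9589, 8038 and 8789 CPM in WT, 10902, 11208 and 10729 CPM in the fes1Δ-labelled libraries and 12157, 11378 and 11644 CPM in fes1ΔS. WT did not overlap with either strain, and the log2 difference was 0.31 (SE 0.06, edgeR adjusted p = 0.00247) and 0.41 (SE 0.06, edgeR adjusted p = 0.000242). On the deposited FPKM values the former missed the threshold (limma adjusted p = 0.0555).

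ENO2, the main enolase gene in glucose, held 15947, 14385 and 15323 CPM in WT, 18889, 17835 and 17429 CPM in the fes1Δ-labelled libraries and 20435, 19243 and 19859 CPM in fes1ΔS. The strains again did not overlap with WT, at log2 0.25 (SE 0.06, edgeR adjusted p = 0.00754) and 0.38 (SE 0.06, edgeR adjusted p = 0.000186). ENO1, the other enolase gene, was lower in the fes1Δ-labelled libraries, at 560 ± 6.78 against 689 ± 86.6 CPM in WT (log2 -0.30, SE 0.09, edgeR adjusted p = 0.0421). This call was lost when any library but WT replicate 2 was left out (edgeR adjusted p = 0.0921 to 0.171) and under other size factors (0.0501 and 0.0560). In fes1ΔS, ENO1 stood at 691 ± 85.8 CPM (log2 0.00, 95% interval -0.19 to 0.20).

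GPM1 was not called in either strain, at 9308 ± 689 CPM in WT, 8635 ± 556 CPM in the fes1Δ-labelled libraries and 9747 ± 353 CPM in fes1ΔS. CDC19 was not called either, with intervals of the log2 difference from -0.09 to 0.19 in the fes1Δ-labelled libraries and from -0.05 to 0.23 in fes1ΔS. PYK2, the minor pyruvate kinase gene, lay between 26.5 and 38.6 CPM in all WT, fes1Δ-labelled and fes1ΔS libraries and was not called.

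At pyruvate decarboxylase, PDC1 was higher in both. It held 13455, 13663 and 14289 CPM in WT, 18723, 16541 and 14839 CPM in the fes1Δ-labelled libraries, and 17224, 17299 and 15781 CPM in fes1ΔS. The WT libraries lay below all fes1Δ-labelled and fes1ΔS libraries, but the lowest library labelled fes1Δ came close to the highest WT library. The log2 difference was 0.28 in both comparisons (SE 0.07, edgeR adjusted p = 0.0119 and 0.0159). It was lost for the fes1Δ-labelled libraries without their replicate 1 (log2 0.18, edgeR adjusted p = 0.0715), and for fes1ΔS without WT replicate 1 (0.0740), fes1ΔS replicate 1 (0.0662) or fes1ΔS replicate 2 (0.0882).

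PDC5, which is known to rise when PDC1 is lost, was called higher in the fes1Δ-labelled libraries at 30.9 ± 1.63 against 25.1 ± 1.94 CPM (log2 0.30, SE 0.08, edgeR adjusted p = 0.0219). The call was lost without WT replicate 2 (edgeR adjusted p = 0.0858), without fes1Δ replicate 1 (0.0857), in a fit of those strains only (0.0854) and with DESeq2 (0.0573). PDC6 had between 1 and 18 counts in the WT, fes1Δ-labelled and fes1ΔS libraries and was not called. PDC1 made up 99.8% of the summed per-length level of PDC1, PDC5 and PDC6 in each strain.

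Of the 5 alcohol dehydrogenase genes, 4 were called lower in the fes1Δ-labelled libraries and 1 in fes1ΔS, beside 7.15% and 3.44% of all genes. Only the ADH3 call, in the fes1Δ-labelled libraries, was kept under every alternative. ADH3, for the mitochondrial enzyme, held 426, 438 and 447 CPM in WT and 332, 346 and 340 CPM in the fes1Δ-labelled libraries. The groups did not overlap, with a log2 difference of -0.36 (SE 0.06, edgeR adjusted p = 0.000291). In fes1ΔS the libraries ran from 383 to 441 CPM and the gene was not called (log2 -0.08, 95% interval -0.20 to 0.04).

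ADH1 stood at 9581 ± 686 CPM in WT and at 8031 ± 342 CPM in the fes1Δ-labelled libraries (log2 -0.25, SE 0.07, edgeR adjusted p = 0.0169). That call was lost without WT replicate 1 (edgeR adjusted p = 0.0978), WT replicate 3 (0.0628) or fes1Δ replicate 2 (0.0613). In fes1ΔS, ADH1 stood at 8425 ± 535 CPM and was not called (log2 -0.19, edgeR adjusted p = 0.116), though it passed without WT replicate 2 (0.0321). ADH5 was lower in the fes1Δ-labelled libraries, at 25.98 ± 1.60 against 33.2 ± 1.67 CPM (log2 -0.35, SE 0.09, edgeR adjusted p = 0.00999), and lost the call without WT replicate 3 (0.0501) or fes1Δ replicate 2 (0.0537).

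ADH2 was lower in both, on few counts. Its counts were 32, 19 and 26 in WT, 13, 11 and 9 in the fes1Δ-labelled libraries, and 8, 12 and 9 in fes1ΔS, or 2.87 ± 0.643, 1.36 ± 0.163 and 1.13 ± 0.331 CPM. The log2 difference was -1.07 (SE 0.31, edgeR adjusted p = 0.0287) for the former and -1.36 (SE 0.32, edgeR adjusted p = 0.0112) for the latter. For the fes1Δ-labelled libraries the call was lost with DESeq2 (adjusted p = 0.0708) and when any library but WT replicate 2 was left out (edgeR adjusted p = 0.0508 to 0.124), and for fes1ΔS it was lost without WT replicate 1 (0.0652) or fes1ΔS replicate 1 (0.0774). ADH4 lay between 95.6 and 104 CPM in all of these libraries and was not called.

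In the acetate branch, ALD5, a mitochondrial acetaldehyde dehydrogenase gene, was higher in fes1ΔS at 298 ± 1.66 against 245 ± 19.2 CPM (log2 0.28, SE 0.07, edgeR adjusted p = 0.0159). The call was lost on the deposited FPKM values (limma adjusted p = 0.0686) and without WT replicate 1, WT replicate 3, fes1ΔS replicate 2 or fes1ΔS replicate 3 (edgeR adjusted p = 0.0578 to 0.0898). ALD4, for the main mitochondrial enzyme, held 132, 85.6 and 110 CPM in WT and 164, 149 and 169 CPM in the fes1Δ-labelled libraries, without overlap, and missed the threshold (log2 0.55, edgeR adjusted p = 0.0755). It passed without WT replicate 1 (0.0348), in a fit of those strains only (0.0382) and with DESeq2 (adjusted p = 0.0364).

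ALD6, the cytosolic enzyme gene that supplies acetate in glucose, likewise missed the threshold in the fes1Δ-labelled libraries, at 1603 ± 81.5 against 1402 ± 78.3 CPM (log2 0.19, edgeR adjusted p = 0.0579), and passed without fes1Δ replicate 1 (0.0385) and with DESeq2 (adjusted p = 0.0383). In the glycerol branch, GPD2, the glycerol-3-phosphate dehydrogenase gene linked to redox balance, was higher in fes1ΔS at 237 ± 13.6 against 199 ± 16.9 CPM (log2 0.25, SE 0.07, edgeR adjusted p = 0.0274). This was lost without WT replicate 2 (0.118), fes1ΔS replicate 1 (0.151) or fes1ΔS replicate 3 (0.0588). GPD1, the copy linked to osmotic stress, was not called, with log2 differences of 0.00 in the fes1Δ-labelled libraries and 0.08 in fes1ΔS. In RNA from whole cultures, a lower level can reflect less RNA per cell or fewer cells that express the gene, and these cannot be told apart.

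Isozyme balance was also measured as the log2 ratio of 2 genes' counts within a library, which does not depend on library size. Over the 4 strains, 6 of 17 ratios differed by an exact permutation test over the 12 libraries with adjustment over the 17. TDH2 over TDH3 had a mean log2 ratio of -2.09 in WT (range -2.14 to -2.06), -3.36 in the fes1Δ-labelled libraries (-3.47 to -3.24), -2.97 in fes1ΔS (-3.12 to -2.77) and -2.13 in fes1ΔL (-2.14 to -2.13), with an exact permutation p = 0.000260 (adjusted 0.00442). WT and fes1ΔL overlapped, and the other strains lay below both without overlapping each other.

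HXK1 over HXK2 had a mean log2 ratio of -3.05 in WT, -1.80 in the fes1Δ-labelled libraries, -1.94 in fes1ΔS and -3.25 in fes1ΔL (exact permutation p = 0.00318, adjusted 0.0180). ENO1 over ENO2 stood at -4.47, -5.01, -4.85 and -4.46 in the same order (exact permutation p = 0.00143, adjusted 0.0121). In fes1ΔS, the log2 difference from WT was 0.00 for ENO1 and 0.38 for ENO2. These 3 ratios passed without any single library.

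TDH1 over TDH3, ADH2 over ADH1 and ADH4 over ADH1 passed with all 12 libraries (exact permutation test, adjusted p = 0.0405 each) and were less firm. TDH1 over TDH3 missed the threshold without any 1 of 11 libraries, and the ADH2 and ADH4 ratios missed it without any 1 of 9 libraries (exact permutation test, adjusted p = 0.0519 to 0.101 over these cases). ADH2 over ADH1 also missed it with all 12 libraries when 5 was added to each count (exact permutation test, adjusted p = 0.0727). When the 3 libraries labelled fes1Δ were left out, a test added after seeing the data, 0 of the 17 ratios passed after adjustment. The exact permutation p was 0.0143 for TDH2 over TDH3 and 0.0179 for HXK1 over HXK2 (adjusted 0.134 each). With 1680 arrangements, 1 ratio alone cannot pass adjustment over the 17 however far it differs. That test therefore cannot tell a lost difference from too few libraries. A pair of strains with 3 libraries each cannot reach an exact p below 0.1.

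The remaining 11 ratios did not pass. Among them PYK2 over CDC19 (adjusted 0.510), GLK1 over HXK2 (0.985) and GPD2 over GPD1 (0.421) had the highest exact permutation p-values. PFK2 over PFK1 and ALD5 over ALD6 came nearer (exact permutation test, adjusted p = 0.135 each), and passed without WT replicate 3 (0.0273) and without WT replicate 2 (0.0429), as PFK27 over PFK26 did without fes1ΔS replicate 1 (0.0166).

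**Figure D4:**
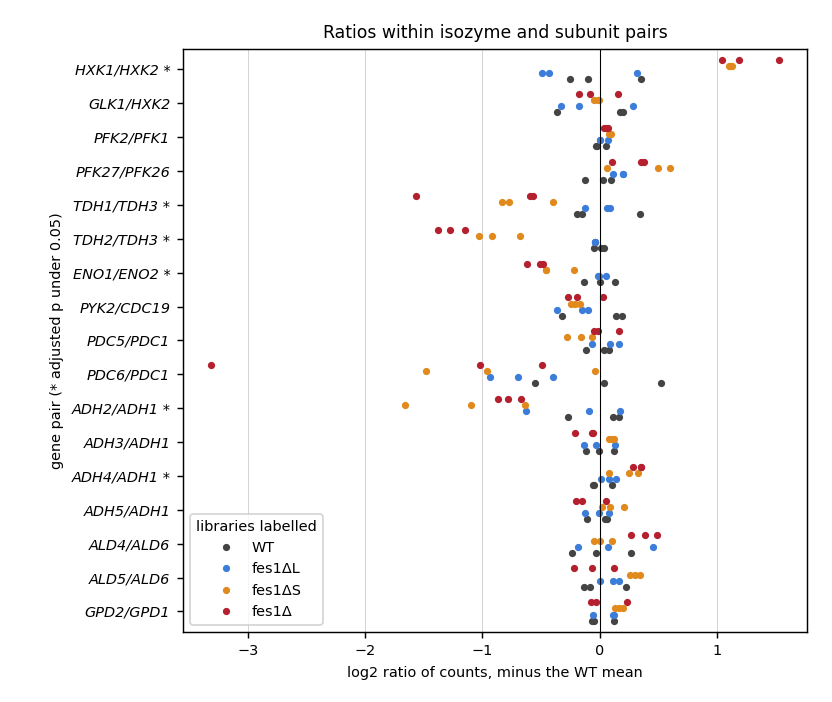
Log2 ratio of the counts of 17 gene pairs in each library minus the WT mean of that ratio, 1 point per library, with a star at pairs that passed the exact permutation test. For TDH2 over TDH3 the mean lies at -1.27 for the fes1Δ-labelled libraries and -0.88 for fes1ΔS, and the fes1ΔL points lie among those of WT.

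In fes1ΔL, 0 of the 32 genes were called against WT by edgeR, beside 0.0699% of all genes (0.035% higher and 0.035% lower), and DESeq2 also called 0. At an unadjusted edgeR p under 0.05, 1 of the 32 passed, beside 232 of all 5719 genes. It was PFK27, at 92.0 ± 1.94 against 81.8 ± 8.48 CPM (log2 0.17). The fes1ΔL libraries overlapped with WT for every gene of the set, whereas 11.2% of all genes did not overlap. The 95% interval of the log2 difference ran from -0.24 to 0.11 for TDH2, from -0.15 to 0.10 for TDH3 and from -0.73 to 0.35 for HXK1.

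Against each other, the fes1Δ-labelled libraries and fes1ΔS differed at 3 of the 32 genes, all lower in the former, beside 2.47% of all genes (1.22% higher and 1.24% lower). TDH2 differed by -0.45 on the log2 scale (SE 0.08, edgeR adjusted p = 0.00623) and HXK2 by -0.32 (SE 0.06, edgeR adjusted p = 0.00455). HXK2 held 1893, 1888 and 1700 CPM in the fes1Δ-labelled libraries and 2454, 2191 and 2218 CPM in fes1ΔS, without overlap. ADH3 differed by -0.28 (SE 0.06, edgeR adjusted p = 0.0116), a call lost without fes1ΔS replicate 1 (0.0968) or fes1ΔS replicate 3 (0.0556). For HXK1 the interval of the difference ran from -0.71 to 0.34, and for TDH3 from -0.18 to 0.08. Libraries did not overlap for 16 of the 32 genes, beside 17% of all genes. ALD4 was not called, though it held 149 to 169 CPM in the fes1Δ-labelled libraries and 104 to 114 CPM in fes1ΔS. In a fit of those strains only, ALD4 was called higher (log2 0.57, edgeR adjusted p = 0.000218) and GLK1 lower (log2 -0.34, 0.0251).

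With fes1ΔL in place of WT, no WT library is compared. Both comparisons share the fes1ΔL libraries, so an error in those libraries enters both. The libraries labelled fes1Δ differed from fes1ΔL at 10 of the 32 genes (5 higher and 5 lower), beside 9.51% of all genes (4.41% higher and 5.11% lower), and fes1ΔS differed at 5 (4 higher and 1 lower), beside 4.83% (2.76% higher and 2.06% lower). HXK1 was 2.42-fold higher in the fes1Δ-labelled libraries (log2 1.27, SE 0.24, edgeR adjusted p = 0.0101) and 2.75-fold higher in fes1ΔS (log2 1.46, SE 0.24, edgeR adjusted p = 0.00758). TDH2 was lower by log2 -0.92 and -0.47 (SE 0.08 each, edgeR adjusted p = 4.42e-07 and 0.00134).

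TDH3, PGK1 and ENO2 were higher in each, by log2 0.31, 0.38 and 0.26 for the fes1Δ-labelled libraries and by log2 0.35, 0.48 and 0.40 for fes1ΔS. Those 5 genes, called in fes1ΔS against fes1ΔL, were also 5 of the 14 called in the fes1Δ-labelled libraries against WT, a pair of comparisons with no library in common, and all 5 had the same direction. Over all genes, 203 were shared, or 73.6% of the fes1ΔS list and 27.6% of the other, against 100% and 35.7% for the pathway. A further pair with no library in common set the fes1Δ-labelled libraries against fes1ΔL and fes1ΔS against WT. It shared 6 of the 10 pathway genes called in each, all in the same direction. That is 60% of each list, beside 38.1% and 54.3% over all genes. All comparisons come from 1 fit, with 1 estimate of the spread over the 12 libraries. Beyond HXK1, TDH2, TDH3, PGK1 and ENO2, ALD6 was called higher in the fes1Δ-labelled libraries against fes1ΔL (log2 0.24, edgeR adjusted p = 0.0238). PGI1, TPI1, ADH3 and ADH5 were called lower there (log2 -0.20 to -0.32). Of these, PGI1, ADH5 and ALD6 were each lost in a fit of those strains only, without fes1Δ replicate 2, without fes1ΔL replicate 1 and without fes1ΔL replicate 2 (edgeR adjusted p = 0.0521 to 0.163). PGI1 and ADH5 were also lost without fes1ΔL replicate 3 (0.18 and 0.197), PGI1 and ALD6 without fes1Δ replicate 3 (0.157 and 0.0665), and ADH5 without fes1Δ replicate 1 (0.101).

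Other genes passed against fes1ΔL with a library left out. For the fes1Δ-labelled libraries these were ENO1 (edgeR adjusted p = 0.0495) and ADH1 (0.0315) without fes1ΔL replicate 2, ALD4 (0.0104) without fes1ΔL replicate 1, and PDC1 (0.00639) without fes1Δ replicate 3. For fes1ΔS they were ALD5 (edgeR adjusted p = 0.0223) and ADH2 (0.0413), both without fes1ΔL replicate 3. With all libraries, DESeq2 called ENO1 (adjusted p = 0.0318) and PDC1 (0.0434) for the fes1Δ-labelled libraries, and HXK2 (0.0426) and ALD5 (0.0324) for fes1ΔS. Limma on FPKM called HXK2 as lower (adjusted p = 0.0216) and ENO1 (0.0414) for the fes1Δ-labelled libraries, and TPI1 (0.0373) for fes1ΔS. The fit of the compared strains called ENO1 (edgeR adjusted p = 0.0168) for the fes1Δ-labelled libraries. For fes1ΔS that fit called HXK2 as higher (edgeR adjusted p = 0.0277), TPI1 (0.0268), GPM1 (0.0338), PDC1 (0.0119), ADH2 (0.0412), ALD5 (0.00527) and GPD2 (0.0226). Upper-quartile size factors called ALD5 (edgeR adjusted p = 0.0325) for fes1ΔS.

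Genes around the pathway were counted in the same way, against WT unless stated. Among 23 regulators of glycolytic and fermentation genes, 8 were higher and 1 lower in the fes1Δ-labelled libraries, beside 5.72% and 7.15% of all genes, and 2 were higher in fes1ΔS, beside 3.22%. The median log2 difference of the 23 was 0.10 and 0.09, beside 0.00 for all genes in both. Against fes1ΔL, 5 of the 23 were higher and 3 lower in the fes1Δ-labelled libraries, beside 4.41% and 5.11% of all genes. In fes1ΔS, 2 were higher and 1 lower than in fes1ΔL, beside 2.76% and 2.06%. ADR1, the activator of ADH2 and of other glucose-repressed genes, stood at 42.2 CPM in WT, 84.2 CPM in the fes1Δ-labelled libraries (log2 1.00, edgeR adjusted p = 1.7e-09) and 81.0 CPM in fes1ΔS (log2 0.94, edgeR adjusted p = 4.9e-09), while ADH2 itself was lower as given above. MTH1, which represses glucose transporter genes when glucose is low, was higher at log2 0.97 (edgeR adjusted p = 4.36e-06) and 0.75 (0.000139). ABF1 (log2 0.34) and HAP4, for an activator of respiratory genes (log2 0.43), were called in the fes1Δ-labelled libraries.

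GCR1, for an activator of glycolytic genes, was not called against WT, with 95% intervals of the log2 difference from -0.27 to 0.00 and from -0.19 to 0.07. RAP1, which acts with it, was not called either (log2 0.15 and -0.03), and these were picked from the list for their role, after their values were seen.

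Of 13 tested gluconeogenesis and glyoxylate cycle genes, 1 was higher and 1 lower in the fes1Δ-labelled libraries and none was called in fes1ΔS (0 of 13). For this and the next lists, the shares of all genes called were 12.9% in the fes1Δ-labelled libraries and 6.66% in fes1ΔS. JEN1, a glucose-repressed lactate transporter gene, rose from 2.53 to 8.26 CPM (log2 1.72, SE 0.24, edgeR adjusted p = 5.19e-05), while MDH2 was lower (log2 -0.23). Among 11 pentose phosphate pathway genes, TAL1 and SOL3 were lower in the fes1Δ-labelled libraries (log2 -0.24 and -0.23) and TAL1 in fes1ΔS (log2 -0.23).

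YPR1 was the only 1 of 9 other glycerol genes called, lower in both (log2 -0.29 and -0.32). Of 13 genes at the pyruvate and acetyl-CoA branch, MPC1, for a subunit of the mitochondrial pyruvate carrier, was higher in the fes1Δ-labelled libraries (log2 0.29) and LPD1 lower (log2 -0.19), with 0 called in fes1ΔS. Of 16 related enzymes outside the set, PGM1, GPM2 and GPM3 were lower in the fes1Δ-labelled libraries (log2 -0.29, -1.34 and -0.30) and 0 were called in fes1ΔS. In fes1ΔL, 0 genes of these lists were called.

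Markers of cell state moved with the strains. Of the 11 stress markers, 4 were higher in the fes1Δ-labelled libraries and 3 in fes1ΔS, beside 5.72% and 3.22% of all genes, with 0 lower. HSP26 stood at 129 CPM in the fes1Δ-labelled libraries against 35.3 CPM in WT, and SUC2 at 96.3 against 88.4 CPM. Of 5 MATa-specific genes, 4 were lower in each, beside 7.15% and 3.44% of all genes. The summed level of the 5 was 1485 to 1688 CPM in WT, 1096 to 1144 CPM in the fes1Δ-labelled libraries, 1196 to 1267 CPM in fes1ΔS and 1520 to 1600 CPM in fes1ΔL. Summed MATalpha-specific markers lay between 50.9 and 66.6 CPM in all 12 libraries. Most of that sum was SAG1, with strain means from 50.9 to 57.3 CPM, so the sum says little about the other markers. MF(ALPHA)1 had at most 9 counts in any library. STE3 was higher in the fes1Δ-labelled libraries, at 7.36 against 1.94 CPM in WT (log2 1.90, edgeR adjusted p = 0.000185). The part of these markers in the results on the pathway was not tested.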

How the data were processed

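Poly(A)-selected, strand-marking libraries were made from total RNA, per the labels' protocols. The authors deposited whole-number counts per gene without normalization and, in a further table, FPKM values scaled by gene length and depth. Per the submitters' processing notes, TopHat2 2.0.4, HTSeq 0.6.1 and Cufflinks 2.1.1 were used on sacCer2; the role of each tool, and whether strand was used in counting, is not stated in the labels or files. In 2 tables of heat-shock data, 12 columns match no sample label and were not used, which left the heat-shock samples out. Of the FPKM rows, 3629 have 1 value per column and the other 3501 have 24 values for 12 columns and could not be used, which leaves 17 of the 32 genes with FPKM values, of which PDC6 fell under the minimum mean and 16 were tested.

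EdgeR 4.0.16 (R 4.3.3) served as the test for counts (TMM, default filter by strain, robust quasi-likelihood F test, 12 libraries and strain alone in 1 fit). Benjamini-Hochberg adjustment ran over 5719 genes, and an adjusted p under 0.05 is a call; intervals are 95% intervals. CPM uses TMM-scaled totals, and CPM per kb uses the coding length of each gene in the RefSeq table of assembly R64, another build than the authors', in place of the protein length foreseen. At the depths here, 3 counts equal 0.302 to 0.403 CPM, and intervals cover the spread between libraries. Ratios had 0.5 added to each count and were tested by 369600 arrangements with scipy 1.17.1, where the smallest possible p is 6.49e-05 over 4 strains. Alternatives were other size factors, no filter, DESeq2 1.42.0, limma 3.58.1 on log2(FPKM + 1) with a minimum mean FPKM of 1, fits of the compared strains, a replicate block and each library left out. Scripts were tested on simulated counts.

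All 32 genes may be named, with full statistics for called genes and isozyme pairs, and from each other list up to 4 called genes with the smallest adjusted p, by rule; STE3, GCR1 and RAP1 were described after their values were seen. The 32 genes and the lists were chosen with earlier results of these data known. Levels of isozyme genes (TDH, ENO, PDC, ADH, HXK, GPD and PFK pairs) are uncertain where shared reads were dropped or split. How similar the genes of each pair are in sequence was not measured.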

Additional observations from a re-analysis of the deposited data

How the results depend on the processing

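None of the results on the 32 genes, the counts or the ratios reversed under the alternatives run. Of the genes called among the 32, 5 of 14 (TPI1, TDH2, TDH3, ENO2 and ADH3) for the fes1Δ-labelled libraries against WT, 4 of 10 (TDH2, TDH3, PGK1 and ENO2) for fes1ΔS against WT, 2 of 3 (HXK2 and TDH2) for the fes1Δ-labelled libraries against fes1ΔS, 7 of 10 and 5 of 5 for these strains against fes1ΔL kept the call under every alternative in which they could be tested. Other size factors moved the median of all genes by less than 0.02 on the log2 scale.

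With each library left out in turn, called genes ran from 486 to 1051 (736 with all libraries) for the fes1Δ-labelled libraries against WT, from 251 to 410 for fes1ΔS against WT, from 3 to 5 for fes1ΔL against WT, from 59 to 128 for the fes1Δ-labelled libraries against fes1ΔS, from 354 to 576 for them against fes1ΔL and from 185 to 221 for fes1ΔS against fes1ΔL. Called members ran from 8 to 12, 6 to 10, 0 throughout, 2 to 3, 7 to 9 and 5 to 7 in the same order, and called ratios from 3 to 6 of 17.

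With only the compared strains in the fit, 466 genes were called for the fes1Δ-labelled libraries against WT, 10 for fes1ΔL against WT and 464 for fes1ΔS against fes1ΔL, with 5 members for the fes1Δ-labelled libraries against fes1ΔS and 12 for fes1ΔS against fes1ΔL. Limma on FPKM, which covers 16 members, called 437 genes and 8 members for the fes1Δ-labelled libraries and 211 genes and 5 members for fes1ΔS against WT, 2 genes for fes1ΔL, and 41 genes and 1 member for the fes1Δ-labelled libraries against fes1ΔS. EdgeR adjusted over the genes of that test alone, an alternative added after seeing the data, called 335 genes and 8 members, 196 genes and 6 members, and 62 genes and 1 member in the same comparisons without fes1ΔL, and 265 and 134 genes for the fes1Δ-labelled libraries and fes1ΔS against fes1ΔL; the drop follows from the fewer genes tested. Without the fes1Δ-labelled libraries, also added after seeing the data, 603 genes were called for fes1ΔS against WT, 11 for fes1ΔL against WT and 8 members for fes1ΔS against fes1ΔL. Called ratios there were 0, with too few arrangements (1680) for 1 ratio alone to pass. Where these differ, apart from the fewer genes tested, the cause was not tested. TDH3 made up 40.0% of the summed per-length level of 16 members in WT by counts and 40.7% by FPKM.

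Over all genes, the deviations of same-numbered libraries from their strain means had r over 0.1 in 4 of 18 pairs (from -0.207 to 0.304), so the replicate numbers were not taken as pairs. Over the 32 members, the median log2 deviation was above 0 for replicate 1 (0.05 to 0.06) and below 0 for replicate 2 (-0.10 to -0.01) in all 4 strains. With a replicate block, 717, 402, 5, 138, 556 and 274 genes and 16, 12, 0, 4, 12 and 5 members were called in the order of comparisons above. The block added ALD4 (edgeR adjusted p = 0.0285) and ALD6 (0.0471) for the fes1Δ-labelled libraries and PFK27 (0.0429) and ADH1 (0.0401) for fes1ΔS against WT, ENO1 (0.0483) for the fes1Δ-labelled libraries against fes1ΔS, and ENO1 (0.0235) and ADH1 (0.0217) for them against fes1ΔL. PDC6 and ADH2, at up to 32 counts per library, are limited by depth.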
